A study of Mus musculus with 2 samples.

Results

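The cells described here are 435 of the 13278 kept cells in a pooled single-cell RNA matrix of cultured mouse neural stem cells (3.28%, 95% interval 2.98 to 3.59%). They were chosen by a sum of raw counts. A cell was kept if it had at least 500 detected genes and at most 10% mitochondrial counts, and it was selected if Foxj1, Ccdc153, Tmem212, Rsph1 and Capsl together gave 3 or more unique molecular identifiers (UMIs, the count of captured RNA molecules). Because these 5 rule genes chose the cells, their values are given as a description and support nothing. The cultures came from the subventricular zone (SVZ), the neurogenic layer along the lateral ventricles, of C57/Bl6J mice. The labels name 2 libraries, 1 control (DMSO vehicle per the design text, although its treatment label also names 20HC) and 1 treated with 1 µM 20HC, an oxysterol, and both were taken 3 days after withdrawal of the growth factors EGF and FGF. Barcodes end in 1 or 2, and nothing ties a number to a library, so no treatment comparison was made. Values of barcode sets 1 and 2 are printed next to each other, without a treatment. All values are from 1 pooled sample with no replicates, so there are no p-values, and intervals are 95% and cover counting error only.

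Multiciliated ependymal cells line the brain ventricles and beat to move cerebrospinal fluid. Their motile cilia are built on doublet microtubules that carry dynein arms, the motors of the beat, and radial spokes, which together with the central pair and the nexin link control it. Foxj1, a forkhead factor, and the RFX factors, which bind X-box sequences, switch on these genes in the lineage, and the factors Gmnc and Mcidas start the making of many centrioles beforehand. Ependymal cells and the astrocyte-like stem cells of the SVZ descend from the same radial glia, so some genes are common to both.

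The label given to these cells is ciliated ependymal-like, and its 5 marker genes are the rule genes themselves, so their values describe the choice and do not check it. Of the 435 cells, 261 (60.0%) had UMIs of no rule gene other than Foxj1 and Rsph1. By number of rule genes seen, 87 had 1 of the 5 genes, 239 had 2, 80 had 3, 21 had 4 and 8 had all 5. Foxj1, the ciliogenic factor, was seen in 80.0% of selected cells, and so was Rsph1, a radial spoke protein. Capsl, which codes for a calcyphosine-like protein, was seen in 32.0%, Ccdc153 in 12.6% and Tmem212, a membrane protein gene of multiciliated cells, in 8.97%. The cells are called selected cells below, after the rule, since values outside it set only part of them apart. On motile cilium genes outside the rule (below), 218 exceeded the level that most cells without rule UMIs lay under. Clustering without the rule genes placed 88 in 1 cluster, which was picked for its highest share of selected cells.

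Foxj1 and Rsph1 were also present well outside the selected cells. Foxj1 UMIs were found in 21.2% of 4983 astrocyte-gene cells (kept, not selected, with 10 or more UMIs of Gfap, Aldoc, Aqp4, Slc1a2 and Cldn10; median 3148 UMIs), in 3.06% of 1896 dividing cells (3 or more UMIs of Mki67, Top2a, Cdk1, Ube2c and Cenpf; median 3172 UMIs) and in 2.86% of 350 Dlx cells (3 or more UMIs of Dlx1, Dlx2, Dlx5, Dlx6os1 and Sp9; median 2237.5 UMIs). Each of these comparison groups met 1 of the 3 rules only. As a level, Foxj1 stood at 74.2 counts per 1000000 UMIs (CPM, 70.1 to 78.6) in astrocyte-gene cells against 9.75 CPM (7.46 to 12.5) in dividing cells of about the same depth. With every cell thinned to 2000 UMIs, which left out 13 selected, 496 astrocyte-gene and 187 dividing cells, the share with a Foxj1 UMI was 59.0%, 13.8% and 1.58% in these groups. Tmem212 stood at 0.808 CPM in astrocyte-gene cells and 0.639 CPM in dividing cells, against 78.2 CPM in selected cells.

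When each rule gene was left out and the cells were chosen by the other 4, that gene was still higher in the chosen cells, a value the choice had not used. Tmem212 stood at 71.2 CPM (58.8 to 85.5) in the 429 cells so chosen against 0.892 CPM in cells with 0 UMIs of the other 4. Capsl stood at 103 against 6.08 CPM, and Ccdc153 at 46.3 against 1.56 CPM. For the pair that dominates the rule the gap was smaller, with Foxj1 at 242 CPM (205 to 283) against 53.6 CPM and Rsph1 at 307 CPM (266 to 353) against 54.8 CPM. Cells with 1 to 2 UMIs of the other 4 lay between, at 96.5 CPM for Foxj1 and 106 for Rsph1. There Capsl stood at 16.9 CPM, Ccdc153 at 4.04 and Tmem212 at 2.20.

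A readout that the rule did not use was the summed UMIs of 4 lists of motile cilium genes (dynein arms, dynein arm assembly, radial spoke with central pair and nexin link, and doublet microtubule with other axoneme genes; 189 genes with a UMI). Selected cells had 77.9 such UMIs per 10000 (76.5 to 79.3), against 26.7 in the other 12843 kept cells, 35.9 in astrocyte-gene cells, 12.4 in dividing cells and 12.7 in Dlx cells. The level was higher at each step in the number of rule UMIs, on both sides of the threshold. It was 21.9 per 10000 in the 9457 cells with 0 rule UMIs, 36.2 in the 2577 cells with 1 and 45.7 (44.9 to 46.5) in the 809 cells with 2, just outside the rule. It was 59.6 (58.3 to 61.0) in the 345 cells with 3 to 4, just inside it, 113 (109 to 118) in the 68 cells with 5 to 9 and 237 (227 to 247) in the 22 cells with 10 or more.

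The same order was present within cells rich in astrocyte genes. Of the selected cells, 323 (74.3%, 69.9 to 78.3%) had 10 or more UMIs of the 5 astrocyte genes. In kept cells above that limit the motile cilium level ran from 30.9 per 10000 at 0 rule UMIs through 45.1 at 2 and 58.6 at 3 to 4 to 113 at 5 to 9 and 223 at 10 or more. In the cells below it the same strata had 16.7, 47.5, 63.5, 114 and 301 per 10000. Whether droplets with more than 1 cell add to the mixed profile was not tested; 6 of the 435 selected cells were called doublets, and without called doublets the selected cells' level was 78.8 per 10000.

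**Figure D1:**
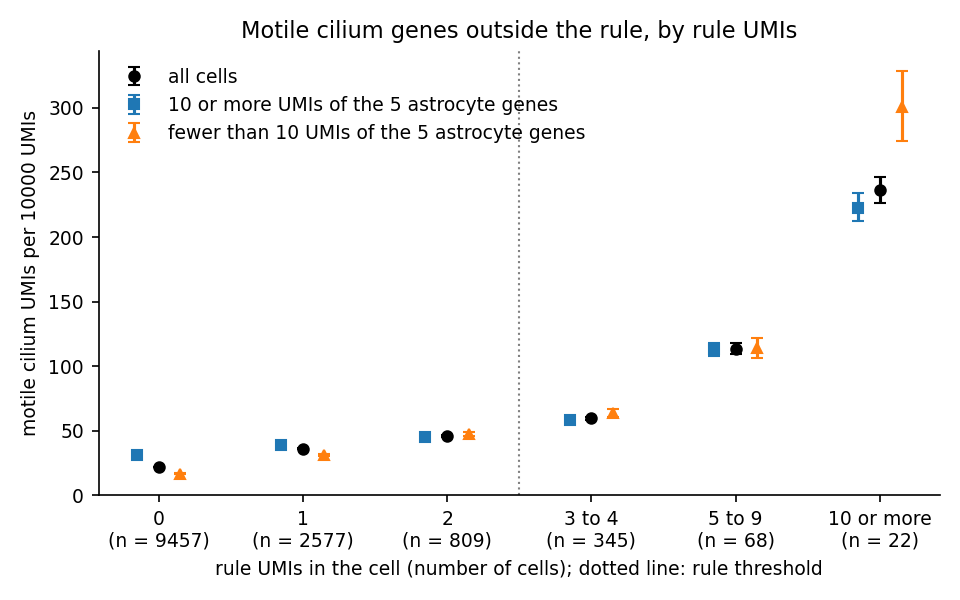
Motile cilium UMIs outside the rule per 10000 UMIs (vertical axis, linear from 0) by number of rule UMIs in the cell (horizontal axis), for all kept cells and split at 10 UMIs of 5 astrocyte genes; bars are 95% Poisson intervals. The level for all cells climbs from 21.9 at 0 rule UMIs to 59.6 just inside the rule and 237 in the 22 cells with 10 or more.

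Among single selected cells the motile cilium level varied widely, from a lowest of 6.97 per 10000 through a median of 61.6 to a highest of 453. The level that 95% of cells with 0 rule UMIs lay below was 60.3 per 10000. Above it were 218 of the 435 selected cells (50.1%, 45.3 to 54.9%), made up of 145 of 345 with 3 to 4 rule UMIs (42.0%), 51 of 68 with 5 to 9 and 22 of 22 with 10 or more. The stratum just inside the rule thus lay on both sides of that level, and every cell with 10 or more rule UMIs lay above it. Astrocyte-gene cells were above the level in 12.5% of cases, dividing cells in 0.158% and Dlx cells in 0 of 350. The limit of 3 counts used here for a 0 allows a share of up to 0.857%, and the exact upper limit is 1.05%.

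Clustering that left out the 5 rule genes placed the selected cells in several groups. The cluster with the highest share of selected cells held 203 cells and is called the ependymal-like cluster. It was led by 3300002A11Rik, 1110017D15Rik, Tmem212, Tm4sf1, Capsl and Pifo, of which Tmem212 and Capsl are rule genes. Its richness in selected cells is thus how it was picked, not a result. It held 88 selected cells (20.2% of them), among them 21 of the 22 with 10 or more rule UMIs. A cluster led by Pcp4, Agt and Gria1 held 190 selected cells (43.7%), and a cluster led by Gfap and Aldoc held 134 (30.8%). In both of these, selected cells were a small share of the cluster, 4.73% and 4.72%.

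The 88 selected cells inside the ependymal-like cluster had 178 motile cilium UMIs per 10000 (174 to 183), and the 347 outside it had 54.7 (53.4 to 56.0). Tmem212, a rule gene, had 125 UMIs inside and 1 UMI outside. Foxj1, another rule gene, stood at 480 CPM (405 to 565) inside and 416 CPM (382 to 453) outside, levels whose intervals overlap. Outside the cluster 242 of 347 selected cells (69.7%) had UMIs of no rule gene other than Foxj1 and Rsph1, against 19 of 88 (21.6%) inside. The rule thus partly sets these Foxj1 levels, and they are a description. The other 115 cells of the cluster were not selected, and had 98.1 motile cilium UMIs per 10000 (94.7 to 102), above the level of the selected cells outside it. Selected cells were thus 43.3% of this cluster. Its unselected cells had a median of 2661 UMIs against 3221.5 in its selected cells, and the part of depth in their not being selected was not tested.

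**Figure D2:**
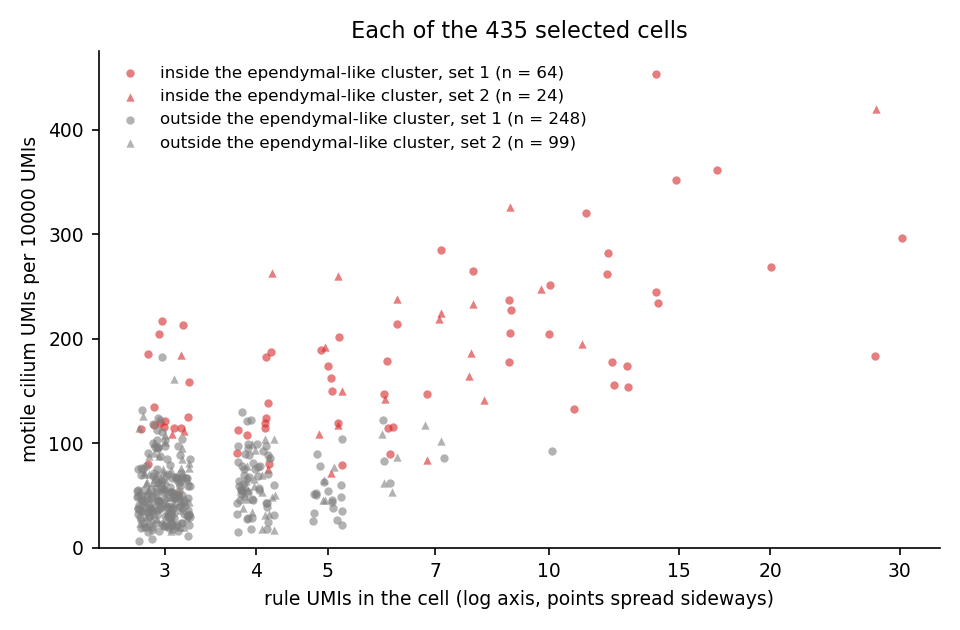
Each of the 435 selected cells by its rule UMIs (horizontal, log axis) and its motile cilium UMIs outside the rule per 10000 (vertical, linear); red marks cells inside the ependymal-like cluster, grey those outside it, circles barcode set 1 and triangles set 2. Cells with 3 or 4 rule UMIs are mostly grey and low, while 21 of the 22 cells with 10 or more are red.

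Gene by gene, selected cells were compared with the other kept cells. A gene was called higher or lower if its CPM differed at least 2-fold, with the sign shared by sets 1 and 2 and with the other cells' CPM outside the selected cells' interval; higher calls also needed 10 UMIs in the selected cells. Genes counted as measured had at least 30 UMIs over all kept cells, the selected cells included. A gene that is rare elsewhere can thus pass this minimum through the selected cells alone. Of 13063 measured genes, 606 were called higher (4.64%) and 669 lower (5.12%). The median log2 ratio (on CPM + 5) over all of them was 0.06. The 4 motile cilium lists together had 129 of 158 measured genes higher and 1 lower, with a median log2 ratio of 1.23. A further 31 genes of these lists with a UMI were under the 30-UMI minimum.

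Dynein arm genes, the motors and their docking, were higher for 21 of 26 measured members and lower for 0. The outer arm heavy chains Dnah5 and Dnah9 stood at 10.6 against 2.46 CPM and 18.6 against 3.68 CPM. Tekt1, a filament protein of the doublet microtubules that the list also holds, stood at 111 CPM (95.4 to 129) against 25.03 CPM, and Dnali1, a light intermediate chain of the inner arm, at 59.6 against 15.3 CPM. Of the 12 measured assembly factors, which build dyneins in the cytoplasm, 9 were higher, such as Zmynd10 (19.2 CPM, 13.1 to 27.3, against 2.70) and Pih1d2 (76.3 against 26.1 CPM). Dnaaf2, another assembly factor, was lower, at 10.6 against 36.6 CPM.

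Radial spoke, central pair and nexin link genes were higher for 29 of 34 and lower for 0. Rsph9, of the spoke head, stood at 109 CPM (93.1 to 126) against 39.1 CPM, Dnajb13, of the spoke stalk, at 90.6 against 26.8 CPM, and Drc1, of the nexin link, at 83.8 against 33.0 CPM. Spag17, a central pair protein, stood at 19.2 against 0.212 CPM. Doublet microtubule and other axoneme genes were higher for 70 of 86 and lower for 0, with a median log2 ratio of 1.32. Tppp3, a microtubule-binding protein, stood at 591 CPM (554 to 630) against 179 CPM, Meig1 at 367 against 98.8 CPM, Fam183b at 332 against 78.6 CPM and Cfap126 at 268 against 63.0 CPM.

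These genes were not spread evenly over the selected cells. The 22 cells with 10 or more rule UMIs are 5.06% of the selected cells and held 17.4% of their motile cilium UMIs, and the 345 cells with 3 to 4 held 60.6%. In the 3 to 4 stratum 81 of 153 measured motile cilium genes were called higher against unselected cells, beside 2.57% of all measured genes there. For selected cells outside the ependymal-like cluster, also against unselected cells, 73 of 151 were higher, beside 2.52% of measured genes. The 22 cells with 10 or more rule UMIs were compared with all other kept cells, the other 413 selected cells included, and 55 of 158 were higher, beside 2.85%. A higher call needs 10 UMIs, which make 108 CPM in these 22 cells, so genes under that level could not be called there. For all selected cells against astrocyte-gene cells alone, 95 of 151 were higher, beside 2.97% of all measured genes. Of the 158 genes, 100 (63.3%) rose at each step from 0 to 1 to 2 to 3 to 4 rule UMIs, as did 16.2% of all 13063 genes. In the cells with 10 or more, 129 of the 158 (81.7%) stood at least 2-fold above the 3 to 4 stratum, against 20.3% of all genes.

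Few regulators of multiciliation reached a call, and several were too sparse to be called. Of 12 measured regulators other than Foxj1, 1 was higher and 1 lower, beside 4.64% and 5.12% of all measured genes. Rfx1, an X-box factor, stood at 14.9 CPM (9.54 to 22.2) against 4.13 CPM, while its relatives Rfx2 (15.5 CPM, 10.0 to 22.9, against 8.02) and Rfx3 (37.2 CPM, 28.4 to 47.9, against 27.9) were under 2-fold. Gmnn, the geminin gene of dividing cells, was lower, at 23.0 against 115 CPM, though above the 13.6 CPM of astrocyte-gene cells. Gmnc and Foxn4 had 0 UMIs in the selected cells, which allows up to 1.86 CPM, Mcidas had 2 UMIs, Myb 1 and Trp73 4. All 4 Trp73 UMIs lay in cells with 5 or more rule UMIs. Ccno, also tied to multiciliation, had 2 UMIs at 3 to 4 rule UMIs, 3 at 5 to 9 and 4 at 10 or more. The last make 43.4 CPM (11.8 to 111) and lay in 2 cells, against 1.27 CPM in cells with 0 rule UMIs.

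Genes of the basal body and of cilia of every kind moved less than those of the motile axoneme. Of 31 measured centriole and basal body genes, 3 were higher (Cetn4, Odf3b and Spata6) and 3 lower (Plk4, Sass6 and Cenpj, which act in the copying of centrioles). Cetn4, a centrin, stood at 101 against 41.2 CPM and Plk4, the kinase that starts centriole copying, at 1.86 against 15.7 CPM. Intraflagellar transport, which carries cargo along any cilium, had 2 of 34 genes higher (Ift172 and Ttc26) and 0 lower, with a median log2 ratio of 0.48. The BBSome and ciliary membrane list, which also serves primary cilia, had 1 of 30 higher (Tctn3) and 0 lower, with a median of 0.34. Over all measured genes 4.64% were called higher, a share near the counts of the transport and BBSome lists. Their summed levels differed more among the selected cells, since intraflagellar transport genes together ran from 2365 CPM at 3 to 4 rule UMIs to 3176 at 5 to 9 and 4358 CPM (3943 to 4806) at 10 or more. Tubulins had 0 of 11 higher and 4 lower (Tubb3, Tubb5, Tubb6 and Tuba1b), of which Tubb3, Tubb5 and Tuba1b turned to slightly higher or higher against astrocyte-gene cells alone. Tubb4b, the beta tubulin of axonemes, was not called, at 840 against 613 CPM; dividing cells had 1156 CPM and astrocyte-gene cells 430 CPM, and within the selected cells it ran from 726 through 1186 to 1507 CPM (1267 to 1779).

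By the rule for named genes, the widest ratios among genes seen in at least 20% of selected cells, the leading gene was 1700001C02Rik, at 90.6 CPM (76.5 to 107) against 11.4 CPM. Tm4sf1, a tetraspanin-like surface protein, followed at 196 CPM (175 to 218) against 28.8 CPM, and Pifo, a ciliary protein gene, at 127 CPM (110 to 145) against 20.2 CPM. Both barcode sets showed the Tm4sf1 gap, with 186 against 29.4 CPM in set 1 and 219 against 27.0 CPM in set 2. Pifo stood at 131 against 20.4 CPM in set 1 and 115 against 19.6 CPM in set 2. Further down were the axonemal or flagellar genes 1700007K13Rik (117 against 27.8 CPM), Enkur (120 against 32.2), Morn5 (80.1 against 23.9) and Iqcg (72.6 against 22.4). Riiad1 stood at 222 against 62.7 CPM and Mlf1 at 161 against 49.2 CPM.

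Several leading genes code for secreted, surface or calcium-binding proteins rather than cilium parts. Gas6, a ligand of receptor tyrosine kinases, stood at 104 CPM (89.1 to 121) against 27.7 CPM, Nmb, the neuromedin B precursor, at 125 against 42.9 CPM, and Ecm1, an extracellular matrix protein, at 119 against 37.5 CPM. Pvalb, the calcium buffer parvalbumin, stood at 263 against 80.1 CPM, S100a4, another calcium-binding protein, at 396 against 137 CPM, and Ctsh, a lysosomal protease, at 91.2 against 31.7 CPM. The last of the 25 were Abhd11os, annotated as a pseudogene transcript, at 104 against 36.7 CPM, and Smim1, a small membrane protein, at 86.9 against 32.2 CPM. Unselected cells with 2 rule UMIs also exceeded the other kept cells in these genes. They had 218 CPM of S100a4, 110 of Pvalb, 88.8 of Nmb and 58.3 of Abhd11os. Ecm1 stood there at 56.2 CPM, Smim1 at 52.3, Gas6 at 49.8 and Ctsh at 42.2. Of 32 measured ependymal genes outside the cilium, 4 were higher (Hdc, Mia, Tm4sf1 and Gm973) and 3 lower (Nnat, Acta2 and Celsr3). Over all measured genes 4.64% were higher and 5.12% lower. Against astrocyte-gene cells alone the sign of Acta2 turned, at 67.7 against 34.0 CPM, under the 2-fold limit. Single cells held 21 of its 83 UMIs at 3 to 4 rule UMIs, 13 of 17 at 5 to 9 and 6 of 9 at 10 or more. Celsr3 had 0 UMIs, and the 1.86 CPM that 0 allows is close to its 2.35 CPM in other cells, so its call as lower does not stand.

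The levels of these genes separated the strata. Tm4sf1 ran from 98.0 CPM (81.6 to 117) at 3 to 4 rule UMIs to 312 at 5 to 9 and 1236 CPM (1020 to 1485) at 10 or more, and Pifo from 85.5 through 222 to 445 CPM. In cells with 2 rule UMIs they stood at 50.1 and 52.3 CPM. S100a4 went from 317 through 460 to 1323 CPM and Ctsh from 58.8 through 103 to 510 CPM. Abhd11os did not follow, with 99.6, 152 and 32.5 CPM (6.71 to 95.1). Foxj1 itself was 398 CPM (364 to 435), 570 CPM (479 to 674) and 466 CPM (337 to 628), and Tmem212 was 8.63, 98.5 and 987 CPM (794 to 1211). Both are part of the sum that defines the strata, so these values are a description.

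Cd24a, a surface protein gene listed with neuroblast markers and also known in ependymal cells, was high at both ends of the range of rule UMIs. It was at 206 CPM with 0 rule UMIs, 63.4 with 2, 97.2 (80.9 to 116) with 3 to 4, 254 with 5 to 9 and 618 CPM (468 to 801) with 10 or more. Vim, an intermediate filament gene of glia and ependyma, was at 4253 CPM in the 3 to 4 stratum and 6603 CPM (6089 to 7149) in cells with 10 or more. Id3, a target of BMP signalling, went the other way, from 585 CPM (544 to 628) through 324 to 75.9 CPM (30.5 to 156). Id1 and Id2, its relatives, went likewise from 289 to 65.1 CPM and from 475 to 108 CPM. Fabp7, a fatty acid-binding protein of radial glia, was at 1058, 997 and 369 CPM (255 to 515).

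**Figure D3:**
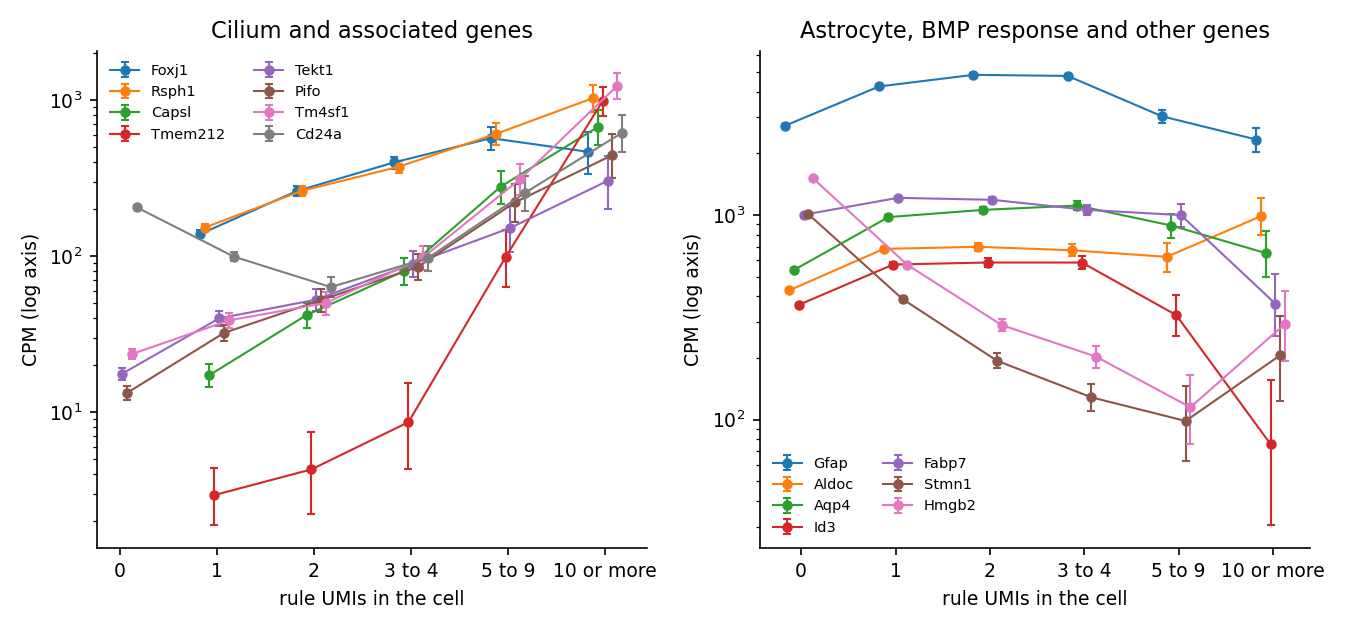
Levels (CPM, log axis) of cilium and associated genes (left) and of astrocyte, BMP response and other genes (right) by number of rule UMIs; bars are 95% Poisson intervals, levels of 0 are not drawn, and Foxj1, Rsph1, Capsl and Tmem212 are rule genes. Tmem212 and Tm4sf1 reach about 1000 CPM or more in cells with 10 or more rule UMIs, while Id3 drops to 75.9 CPM.

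Promoters bear on these results because many motile cilium genes moved together and RFX factors bind X-box sequences near their starts. Promoters of 300 bases (250 before to 50 after the start) were taken from RefSeq on GRCm38.p6 and searched on both strands for the X-box core words GTTGCCA and GTTACCA and for the forkhead word GTAAACA. Of the 129 motile cilium genes called higher, 109 had a promoter. Either core word was found in 28 of their 125 promoters (22.4%), in 87 of 596 promoters of all genes called higher (14.6%) and in 757 of 12713 promoters of measured genes (5.96%). The forkhead word was found in 6 of the 125 motile promoters (4.80%), 3.19% of those of all genes called higher and 2.57% of all measured ones. Over all RefSeq promoters searched the share was 3.65%. A match is a description of these letters, not of binding. Most leading genes with a promoter, such as Tm4sf1, Fam183b, Cfap126 and Enkur, held neither exact core word in the 250 bases before the start. Iqcg, Meig1, Mlf1, Pifo and Tekt1 were the leading genes that held one. Only exact words were searched. Near matches, such as GTTGCCT in Fam183b and GTTGCCC in Enkur, were not counted, so genes without a core word may still hold an X-box of looser form.

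The 250 bases before the start are shown for 1 rule gene and 3 leading genes whose promoters hold a core word, written 5′ to 3′ along the gene with the matched word in capitals (TGGTAAC is GTTACCA read on the other strand, and TGTTTAC is GTAAACA read on the other strand).
Tmem212 (chr3:27896369-27896618, minus strand): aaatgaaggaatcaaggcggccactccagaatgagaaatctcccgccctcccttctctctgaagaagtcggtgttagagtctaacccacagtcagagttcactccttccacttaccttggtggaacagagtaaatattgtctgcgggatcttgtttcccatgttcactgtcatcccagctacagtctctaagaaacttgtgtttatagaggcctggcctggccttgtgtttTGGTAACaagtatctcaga
Tekt1 (chr11:72361883-72362132, minus strand): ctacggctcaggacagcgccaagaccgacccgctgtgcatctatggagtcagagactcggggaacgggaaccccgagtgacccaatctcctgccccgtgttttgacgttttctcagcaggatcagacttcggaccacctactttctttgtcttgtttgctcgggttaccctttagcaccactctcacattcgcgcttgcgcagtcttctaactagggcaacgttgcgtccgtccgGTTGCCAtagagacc
Iqcg (chr16:33056187-33056436, minus strand): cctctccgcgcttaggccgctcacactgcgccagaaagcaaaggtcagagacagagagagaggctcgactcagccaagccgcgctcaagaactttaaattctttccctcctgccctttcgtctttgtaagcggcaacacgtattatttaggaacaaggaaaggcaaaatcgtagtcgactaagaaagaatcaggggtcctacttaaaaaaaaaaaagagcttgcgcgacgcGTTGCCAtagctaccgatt
Mlf1 (chr3:67373847-67374096, plus strand): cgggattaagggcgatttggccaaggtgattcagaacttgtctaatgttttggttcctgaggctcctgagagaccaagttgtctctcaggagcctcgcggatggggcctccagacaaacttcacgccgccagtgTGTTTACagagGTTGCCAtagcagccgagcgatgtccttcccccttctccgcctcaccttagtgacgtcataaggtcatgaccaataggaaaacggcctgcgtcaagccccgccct
Distances are from the RefSeq start, which can differ from that of another annotation. The word starts 19 bases before it in Tmem212 and Iqcg and 15 before it in the Tekt1 promoter shown, the first of 2. In Mlf1 the core word starts 105 bases before the start, and the forkhead word 116 before it.

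On GRCm38 Foxj1 lies on chromosome 11 from 116330704 to 116335399, Rsph1 on chromosome 17 from 31255019 to 31277383 and Tmem212 on chromosome 3 from 27866066 to 27896368, all on the minus strand. Capsl lies on chromosome 15 from 9436028 to 9466038 and Ccdc153 on chromosome 9 from 44240676 to 44247306, both on the plus strand. All 5 are annotated as protein coding, and UMIs were counted near transcript 3′ ends and summed per gene.

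Astrocyte genes were prominent in the selected cells. Of 13 astrocyte markers 0 were called higher and 0 lower against the other kept cells, but the list's sum was 15635 CPM in selected cells, between the 19259 CPM of astrocyte-gene cells and the 2100 CPM of dividing cells. Gfap, the astrocyte filament, stood at 4366 CPM (4264 to 4469) against 3202 in other cells and 6524 in astrocyte-gene cells. By strata it was at 4769, 3028 and 2331 CPM (2030 to 2664), and Aqp4, the water channel of both astrocytes and ependyma, at 1110, 886 and 651 CPM. Aldoc, another astrocyte gene, did not drop, at 671, 624 and 987 CPM (794 to 1211). The astrocyte list summed to 12078 CPM in the 22 cells with 10 or more rule UMIs.

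Genes of dividing cells were low. All 14 of 14 S phase and 14 of 14 G2 and M phase genes were called lower, but their sums, 251 and 223 CPM, were above the 224 and 99.4 CPM of astrocyte-gene cells. The smallest ratios were those of Ube2c (23.6 CPM, 16.7 to 32.4, against 313), 2810417H13Rik (42.2 against 486) and Top2a (31.6 against 303), genes of DNA replication and mitosis. Chromatin and cytoskeletal genes of proliferating progenitors followed, with Stmn1 at 129 against 814 CPM, Hmgb2 at 195 against 1216 CPM, Hmgn2 at 99.3 against 518 CPM and H2afz at 496 against 2204 CPM. Ccnd2, a cyclin, stood at 358 against 1706 CPM, Tubb3, a neuronal tubulin, at 62.7 against 314 CPM and Sox11, a factor of young neurons, at 81.3 against 366 CPM. Against astrocyte-gene cells alone these genes, other than Ccnd2, were not lower but slightly higher or higher. Top2a was then at 31.6 against 12.2 CPM and Ube2c at 23.6 against 9.51 CPM, and for Ccnd2 the values were 358 and 368 CPM. Those comparison cells hold no cell with 3 or more UMIs of the 5 dividing genes, while 14 of the selected cells do. The part of this in the turn was not tested.

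**Figure D4:**
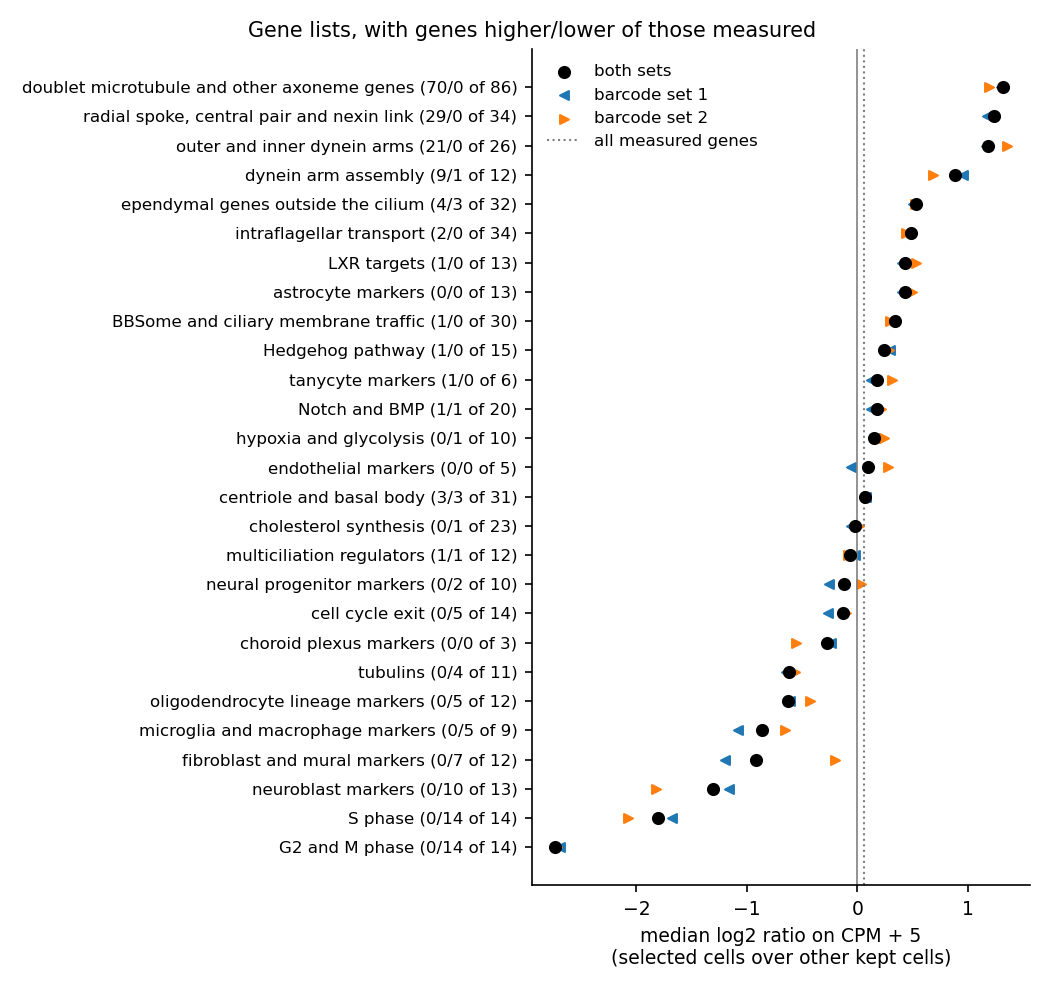
Median log2 ratio (CPM + 5) of selected over other kept cells for each gene list with at least 3 measured genes (horizontal axis, linear; black both sets, blue set 1, orange set 2), with the number of genes higher and lower of those measured beside each name. The 3 axonemal lists and dynein arm assembly lie to the right, from 0.88 to 1.32, and the S phase and G2 and M phase lists to the left, which against astrocyte-gene cells alone have higher sums in selected cells; the dotted line is the median of all measured genes, 0.06.

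Neuroblast, oligodendrocyte lineage, fibroblast and microglia markers each summed to less than in the other kept cells. Over all measured genes 4.64% were called higher and 5.12% lower. The share of cells with a UMI went the other way, in selected cells against cells with 0 rule UMIs. It was 67.6% against 65.0% for neuroblast, 57.5% against 46.9% for oligodendrocyte lineage and 47.4% against 26.7% for fibroblast and mural markers. Depth was not matched there, with medians of 3500 and 2747 UMIs. Neuroblast markers had 10 of 13 lower and 0 higher (Dlx1 and Tubb3 turned to higher against astrocyte-gene cells alone), with a sum of 590 CPM (553 to 629) against 963 CPM in other kept cells and 393 CPM in astrocyte-gene cells; Sp8 and Gad1 were at 0. Their sum was 491 CPM at 3 to 4 rule UMIs, 936 at 5 to 9 and 1052 CPM (853 to 1283) at 10 or more, where Cd24a, described above, made up 618 CPM. Oligodendrocyte lineage markers summed to 284 against 361 CPM, with 5 of 12 lower and 0 higher, and the defining genes Sox10 and Gpr17 were at 0. Fibroblast and mural markers summed to 335 against 588 CPM, with 7 of 12 lower and Vtn at 0, but Col1a1, lower over all selected cells and higher against astrocyte-gene cells alone, ran to 103 CPM in the 5 to 9 stratum, and 1 cell held 64.1% of its UMIs. Microglia markers had 5 of 9 lower, with a sum of 23.0 against 120 CPM, and all 9 Tyrobp UMIs lay in 1 cell.

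Other lining cells of the ventricle were looked for by their markers. Choroid plexus markers summed to 9.93 CPM (5.68 to 16.1) against 9.02 CPM in other cells, with 5 of 11 at 0, among them Kl, Prlr and Cldn2. Folr1, another marker of that tissue, had 43.4 CPM (11.8 to 111) in the 22 cells with 10 or more rule UMIs and none in the 3 to 4 stratum. Of 6 measured tanycyte markers 1 was higher, Crym, a thyroid hormone-binding protein, at 62.1 CPM (50.5 to 75.5) against 14.2 CPM. Crym was seen in 5.98% of selected cells, 1 cell held 12 of its 100 UMIs, and Rax, the defining factor of tanycytes, was at 0. Endothelial markers had 0 of 5 higher and 0 lower, and Cldn5 was at 0.

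By its title the study asks about an oxysterol and Gli2, through which Hedgehog signals reach the genome, so the lists of that pathway and of sterol response were read in the selected cells. Of 15 measured Hedgehog genes 1 was called higher and 0 lower, beside 4.64% and 5.12% of all measured genes, with a median log2 ratio of 0.25. Among the ligands, Dhh stood at 6.83 CPM (3.41 to 12.2; 11 UMIs) against 1.61 CPM, while Shh and Ihh had 0 UMIs. The receptor gene Ptch1 stood at 13.7 CPM (8.56 to 20.7) against 12.99 CPM and the transducer gene Smo at 31.6 CPM (23.6 to 41.6) against 25.2 CPM. Gli2 stood at 3.72 CPM (1.37 to 8.11) against 4.76 CPM and Gli3 at 11.8 against 9.15 CPM. The target genes Gli1 and Hhip had 0 UMIs in the selected cells; a level of up to 1.86 CPM is allowed by that, above their 0.265 and 0.132 CPM in other cells, so no difference was detectable at this depth.

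LXR targets, genes that oxysterols can induce through the liver X receptors, had 1 of 13 higher (Smpdl3a, 192 CPM, 172 to 215, against 92.1) and 0 lower. Apoe, the lipid carrier, stood at 7382 CPM (7250 to 7516) against 5104 in other cells and 8042 in astrocyte-gene cells. It differed between the barcode sets, at 8484 CPM in set 1 and 4550 in set 2 in selected cells, and at 5856 and 2951 CPM in the other cells. Of 23 cholesterol synthesis genes 0 were higher and 1 was lower (Sc5d, 4.34 against 10.4 CPM), and their sum was 709 CPM (669 to 752) against 691 CPM. Of 20 Notch and BMP genes 1 was higher (Smad7) and 1 lower (Hes6, 45.9 against 168 CPM), and of 10 hypoxia and glycolysis genes 0 were higher and 1 lower (Adm). Over all measured genes 4.64% were called higher and 5.12% lower, so single calls in such short lists are not read as a difference of the list. Of 14 cell cycle exit genes 0 were higher and 5 lower. Cdkn1a, the inhibitor p21, stood at 770 against 473 CPM, under the 2-fold limit.

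Barcode set 1 held 312 selected cells of 9869 kept (3.16%, 2.83 to 3.53%) and set 2 held 123 of 3409 (3.61%, 3.01 to 4.29%), shares whose intervals overlap. Cells with 10 or more rule UMIs numbered 19 in set 1 (0.193%, 0.116 to 0.301%) and 3 in set 2 (0.088%, 0.0182 to 0.257%). Motile cilium UMIs were 76.8 per 10000 (75.2 to 78.4) in the selected cells of set 1 and 80.7 (78.1 to 83.4) in those of set 2, and 26.6 and 27.0 in the other cells. Foxj1 stood at 403 CPM in set 1 and 494 in set 2, Rsph1 at 468 and 392 CPM, and Tmem212 at 88.8 and 51.0 CPM. Median depth was 3500 UMIs per selected cell and 2837 per other kept cell. Of the barcode sequences, 48 occurred in both sets, and 3 selected cells carried one of these.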

How the data were processed

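Single-cell RNA libraries were made with the 10x Chromium 3′ kit, version 1, per the labels' protocols. The authors deposited counts as raw whole UMIs in 1 pooled matrix (28692 genes, 14685 barcodes, 41462326 UMIs), made with Cell Ranger 2.1.1 on mm10, per the submitters' processing notes; strand and counting settings are not given in the sources used here. Nothing ties the barcode suffix to a library, so the matrix was treated as 1 sample. Of the barcodes, 635 had under 500 genes and 912 over 10% mitochondrial counts, 1407 in all.

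The selected cells and the gene lists were chosen with earlier results of these data known. UMIs were summed per group as CPM with exact Poisson 95% intervals, and shares have exact Clopper-Pearson intervals; the log2 ratio is of CPM + 5, which understates the change of low genes. A count of 0 allows 3 UMIs. Named genes are the 25 largest ratios (a UMI in at least 20% of selected cells), the 10 smallest (at least 300 CPM in other cells), every detected regulator and Hedgehog gene, and, from each remaining list, the 5 with the highest UMI sum in selected cells; list members named outside this rule, such as Folr1, were picked with their values in view. Doublets were called with Scrublet (scanpy 1.11.5) at an expected 0.8% per 1000 cells, marking 239 cells of set 1 (2.42%) and 11 of set 2 (0.323%), a low share in set 2, and were kept. Clusters used 2000 variable genes without the rule genes, 30 components, 15 neighbours and Leiden resolution 0.5 (leidenalg 0.10.2). Gene positions are from GENCODE M21 (28416 of 28692 IDs, 99.0%), promoters from RefSeq on GRCm38.p6. The calling script was tested on simulated data (Python 3.11.15, numpy 2.4.6, scipy 1.17.1, pandas 2.3.3; figures with matplotlib 3.10.9). In all 33 alternatives were run, 26 planned and 7 added after seeing the data. One item of the marker lists is not reported here.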

Additional observations from a re-analysis of the deposited data

Results flagged for a closer look

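Among the 1407 barcodes that the cell filter left out, 17 held 3 or more UMIs of the 5 rule genes, a signal in data that no comparison above used. All 17 were above the 10% limit on mitochondrial counts, and 1 of them had 10 or more rule UMIs. They had 98.6 motile cilium UMIs per 10000, against 28.1 over all left-out barcodes and 77.9 in the selected cells.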

How the results depend on the processing

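No paired analysis was possible because the pooled matrix has neither replicates nor library labels. The number of cells was 1244 with at least 2 rule UMIs, 90 with at least 5, 22 with at least 10, 278 with a rule per 10000 UMIs, 169 without Foxj1, 175 without Rsph1 and 123 in barcode set 2 alone; the cluster with most selected cells held 4016 and the one with their highest share 203. Motile cilium UMIs per 10000 (77.9 in the report) were 57.5, 147, 236.5, 105, 109, 99.9, 80.7, 39.9 and 137 under these in turn. They were 79.58 at 5% mitochondrial counts, 79.3 without Capsl, 81.5 as a mean over cells, 79.62 thinned, 68.3 below 10 rule UMIs, 59.6 at 3 to 4, and 178 inside and 54.7 outside the ependymal-like cluster.

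Genes called higher (606) were 350 and lower (669) 86 against astrocyte-gene cells, 358 and 84 against those of like depth, 1639 and 1082 without astrocyte-gene cells, 1490 and 1056 at 1.5-fold, 224 and 419 at 3-fold, 1016 and 1281 for the cluster with most selected cells, and 372 and 308 at 10 or more rule UMIs. Higher calls were 335 at 3 to 4 rule UMIs and 328 outside the ependymal-like cluster. Motile cilium genes called higher (129) were 66 in set 2 alone, 42 for the cluster with most selected cells, 81 at 3 to 4, 55 at 10 or more and 73 outside the cluster. At 10 or more rule UMIs the 10 UMIs that a higher call needs make 108 CPM, which limits the calls there. In the other settings the cause was not tested. The median log2 ratio of the motile cilium genes (1.23) was 1.70 on CPM + 1 and 0.65 on CPM + 20.

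Log2 ratios of genes called lower turned positive against astrocyte-gene cells (first value) and those of like depth (second): Cenpf 1.35 and 1.42, Dlx1 0.40 and 0.37, Pcna 0.050 and 0.12, Ube2c 0.98 and 1.02, H2afz 0.26 and 0.30, Hmgn2 0.19 and 0.19, Stmn1 0.086 and 0.13, Mcm7 0.40 and 0.40, Rrm1 0.032 and 0.047, Cdk1 0.50 and 0.51, Hmgb2 0.24 and 0.26, Gins2 0.15 and 0.10, Tubb3 0.73 and 0.71, 2810417H13Rik 0.79 and 0.83, Col1a1 1.27 and 1.42, Top2a 1.09 and 1.05, Birc5 0.87 and 0.96, Gmnn 0.59 and 0.66, Rrm2 0.55 and 0.58, Sox11 0.12 and 0.14, Tuba1b 0.15 and 0.16, Tubb5 0.041 and 0.051, and Acta2 0.90 and 1.00. C1qc (0.23) and Tyrobp (0.13) turned in the second alone. For the dividing and Dlx genes of the comparison rules, the rule itself removes cells with 3 or more of their UMIs. The cause of the turns was not tested for any of these genes. Genes called higher turned negative for the cluster with most selected cells (Tmem212 -0.84, Tm4sf1 -0.034, Crym -1.15, Capsl -0.32, Dhh -0.084), outside the ependymal-like cluster (Tmem212 -0.046) and at 10 or more rule UMIs (Abhd11os -0.24); the cause was not tested. Depth limits what 22 cells can show, where 3 UMIs make 32.5 CPM.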

Other observations

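Several further genes, chosen after their values were seen, were concentrated in the selected cells with most rule UMIs. The transcript 3300002A11Rik, annotated as antisense, stood at 42.4 CPM (31.8 to 55.2) at 3 to 4 rule UMIs, 361 CPM at 5 to 9 and 1344 CPM (1118 to 1603) at 10 or more, against 5.85 CPM in other kept cells; without known strand settings it cannot be told apart from an overlapping gene. The protein-coding gene 1110017D15Rik stood at 23.5, 177 and 1019 CPM (824 to 1247) in the same strata. Hdc, the enzyme that makes histamine, stood at 3.14 CPM (0.855 to 8.03), 53.4 and 314 CPM (211 to 452), and 42 of its 46 UMIs in selected cells lay inside the ependymal-like cluster.

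Some genes of secreted proteins, picked in the same way, had this order too, while others did not, such as Apoe (7456, 7390 and 6332 CPM), Clu (1404, 1284 and 922 CPM) and Igfbp5 (1106, 1371 and 1073 CPM). Mia stood at 44.7, 119 and 586 CPM (440 to 764), Lbp, which binds bacterial lipopolysaccharide, at 36.9, 168 and 477 CPM (347 to 640), Rarres2, the chemerin gene, at 50.2, 148 and 553 CPM (412 to 727), and Dmkn at 18.8, 82.1 and 282 CPM (184 to 413). For Rarres2 the barcode sets differed, with 110 CPM in the selected cells of set 1 and 51.0 CPM in those of set 2, against 21.6 and 17.6 CPM in other cells.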
